A study of Anser cygnoides with 6 samples.

Results

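The RNAs described here encode the splicing regulators and RNA-binding proteins of goose myoblasts. They were picked from the deposited gene table by symbol: the families SRSF, TRA2, SRRM, HNRNP, PTBP, MBNL, CELF, RBFOX, QKI, NOVA, ESRP, KHDRBS and RBM (RBM followed by a digit, S or X) were taken as regulators, and SF3, SNRP and U2AF as the core spliceosome. The rule found 89 of the 14283 genes in the table, 76 regulators and 13 genes of the core spliceosome. All 89 are called splicing genes below by their symbols alone, and 52 of them carried a GO term naming splicing. The differentiation stage (DM) is represented by 3 cultures of wild-type primary myoblasts from the leg muscle of Shitou goose (Anser cygnoides) embryos that were moved to 2% horse serum, with 2 to 4 days of differentiation given in the sample descriptions. The proliferation stage (GM) is represented by 3 cultures of such cells that stayed in medium with 15% fetal bovine serum. The cells were enriched for myoblasts by plating, and each culture gave 1 library of RNA depleted of ribosomal RNA. The methods describe cells of several embryos mixed before culture, but elsewhere speak of data from geese, so whether the libraries of a stage are separate animals is not clear. They were treated as cultures, and p-values then measure only the spread between these libraries, which may be technical.

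Introns are removed by the spliceosome, a machine of small nuclear ribonucleoproteins (snRNPs). Most of these are an RNA wrapped by a ring of Sm proteins and joined by proteins of its own. Which exons are kept depends on RNA-binding proteins outside this core. SR proteins mostly favour the use of the exons they bind, hnRNPs often repress it, and families such as MBNL, CELF, RBFOX and QKI act in particular tissues. In mammals, muscle is among the tissues with the most tissue-specific exons, and the MBNL and CELF families act in opposite directions on many exons that switch as muscle matures.

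The measurement is FPKM, the fragments of a gene scaled by its length and by the mapped fragments of the library, as deposited by the authors. With no counts at hand the sequencing depth per gene is unknown, and precision is set by the 3 libraries of each stage. The stages were compared with limma on log2(FPKM + 1) over the 10381 genes whose mean reached 0.5 FPKM, and a fold change on this scale understates the change of low genes. A gene was said to differ at an adjusted p-value (Benjamini-Hochberg over all 10381 genes) under 0.05. Of the 89 splicing genes, 78 passed the filter, 65 regulators and all 13 genes of the core. Median FPKM over genes listed above 0 was 3.82 to 3.94 in the DM libraries and 3.70 to 3.80 in the GM libraries, and the correlation of all tested genes between libraries was 0.965 to 0.974 within a stage and 0.929 to 0.936 between stages.

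Markers of the muscle lineage and of other cell types also differed between the stages. Among 9 muscle markers in the table, MYOM3, MYH15 and ACTN2 of the contractile apparatus rose in DM, while the early myogenic factors MYF5, PAX7 and MYOD1 fell. MYOG, TNNT3 and CHRNA1 did not pass. Every DM library was below every GM library for MYOG (log2 fold change -0.45, limma, adjusted p = 0.0528). For TNNT3 every DM library was above (0.47, adjusted p = 0.0519), and CHRNA1 overlapped (0.12). The muscle list summed to 144 to 149 FPKM in DM against 153 to 166 FPKM in GM. Of 6 fibroblast markers, 4 rose (DCN, COL1A2, PDGFRA and LUM), and the list summed to 3426 to 3702 FPKM in DM against 1539 to 1568 FPKM in GM. The endothelial list summed to 1.37 to 1.54 FPKM in DM and 2.81 to 3.07 FPKM in GM, with CDH5, KDR, TEK, TIE1 and VWF under 1 FPKM in all 6 libraries. The adipocyte list summed to 1.37 to 3.63 FPKM in DM and 5.94 to 8.45 FPKM in GM, the neural list to 1.81 to 1.99 and 3.21 to 3.25 FPKM, and the macrophage list to 18.2 to 26.3 and 14.2 to 21.6 FPKM, again with DM before GM. Of 6 red blood cell markers 0 were matched in the table. The part of these shifts in the results below was not tested.

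Most splicing genes did not pass the test. Of the 78 tested, 6 rose in DM, 10 fell and 62 did not pass. These are 20.5% of the tested splicing genes, whereas 30.3% of all tested genes differed. By direction, 7.69% rose against a background of 14.7%, and 12.8% fell against 15.5%. The fold change was below 0 in 53 of the 78, which is 67.9%, compared with 52.8% of all tested genes. The 3 DM libraries lay above the 3 GM libraries in 6 splicing genes (23.0% of all genes did so) and below them in 22 (25.7% of all genes), and the stages overlapped in 50. With the stricter limit of a log2 fold change beyond 1, RBMS1 rose, against 2.18% of all genes, and no splicing gene fell (1.84% of all genes). By the same limma fit, 1 gene was lower beyond that limit at an unadjusted p-value under 0.05 (RBM15), as were 2.00% of all tested genes. Without GM1, 2 genes rose beyond the limit, and without DM3 1 fell. The limit was applied to log2(FPKM + 1), a scale that makes changes smaller. In plain FPKM, the ratio of means (DM over GM) was 2.37 for RBMS1, 2.005 for CELF2, 2.06 for QKI and 0.492 for SNRPD1, all past the test. Together the splicing genes took 0.605, 0.585 and 0.628% of the summed FPKM in DM, against 0.672, 0.670 and 0.642% in GM, with no overlap of the stages. Their plain sums did overlap, at 1041, 1090 and 1192 FPKM in DM and 1165, 1220 and 1164 FPKM in GM. In RNA of whole cultures, fewer cells of a type and less of an RNA per cell cannot be told apart. The count of genes that fell, and with it the order of falls and rises, did not hold with some single libraries left out. It was 5 risen and 3 fallen without DM2, 5 and 5 without GM1, 5 and 6 without GM2, and 4 and 5 without GM3. With the replicate number as a block, 5 rose and 5 fell. Of all tested genes, 30.3% differed with all libraries, but 18.9% without DM2, 19.9% without GM1, 19.4% without GM2 and 19.9% without GM3. With the block, 24.7% of all tested genes differed. Fallen genes among all tested numbered 1613 with all libraries and 1266 with the block. They numbered 1007 without DM2, 1041 without GM1, 981 without GM2 and 1002 without GM3. Calls thus dropped among all tested genes too. Whether the drop was steeper among the splicing genes was not tested.

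**Figure D1:**
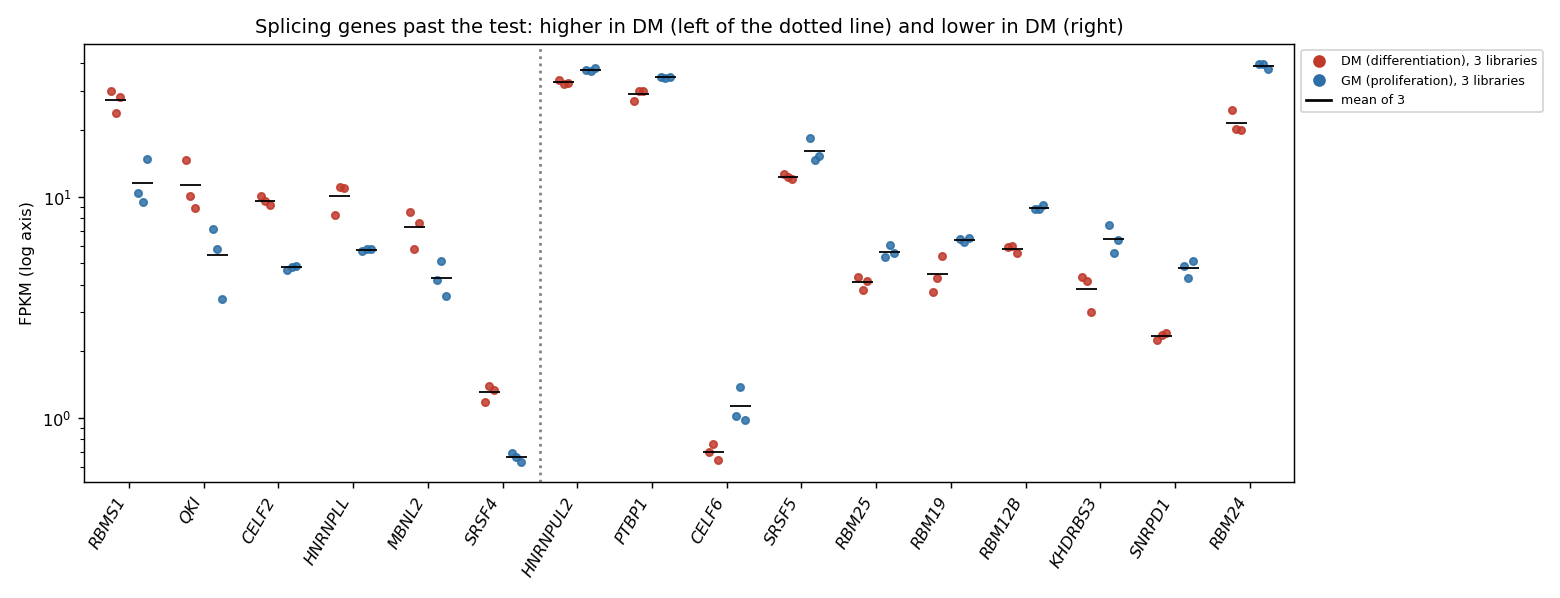
FPKM (log axis) of the 16 splicing genes past the test in each library, with the 3 DM libraries (red) left of the 3 GM libraries (blue) and a line at the mean of 3. The 6 genes left of the dotted line were higher in DM and the 10 right of it lower, and the stages do not overlap in any of the 16.

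Regulators made up 65 of the 78 tested splicing genes. Of these 65, 6 rose, 9 fell and 50 did not pass (23.1% called, against 30.3% of all tested genes). Of the 13 core genes, 1 fell and 12 did not pass (7.69% called). No core gene rose by limma, neither adjusted nor at an unadjusted p-value under 0.05, by which 3 were lower (23.1%, against 22.2% of all tested genes). Fold changes ranged from -1.76 to 1.20 among regulators and from -0.78 to 0.17 in the core. The median log2 fold change was -0.15 for regulators and -0.12 for the core, against -0.03 for all tested genes. The median size of the change, without its sign, was 0.22 for regulators and 0.17 for the core, against 0.24 for all tested genes. Fold changes larger than 0.5 in size were found for 13 regulators (20%) and 1 core gene (7.69%), against 20.6% of all tested genes. Core genes were more abundant, with a median of 19.8 FPKM against 6.84 FPKM for regulators and 5.46 FPKM for all tested genes, and the median standard error of the log2 fold change was 0.09 for the core and 0.11 for regulators. The difference between the classes was not tested, since genes measured in the same libraries are not replicates. Within the regulators, the tissue families (MBNL, CELF, RBFOX, QKI, NOVA, ESRP and KHDRBS) had 3 risen and 2 fallen genes of 12 tested (25% and 16.7%). RBM proteins had 1 and 4 of 27 (3.70% and 14.8%), hnRNPs with PTBP 1 and 2 of 17 (5.88% and 11.8%), and SR proteins 1 and 1 of 9 (11.1% each). Of all tested genes, 14.7% rose and 15.5% fell.

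**Figure D2:**
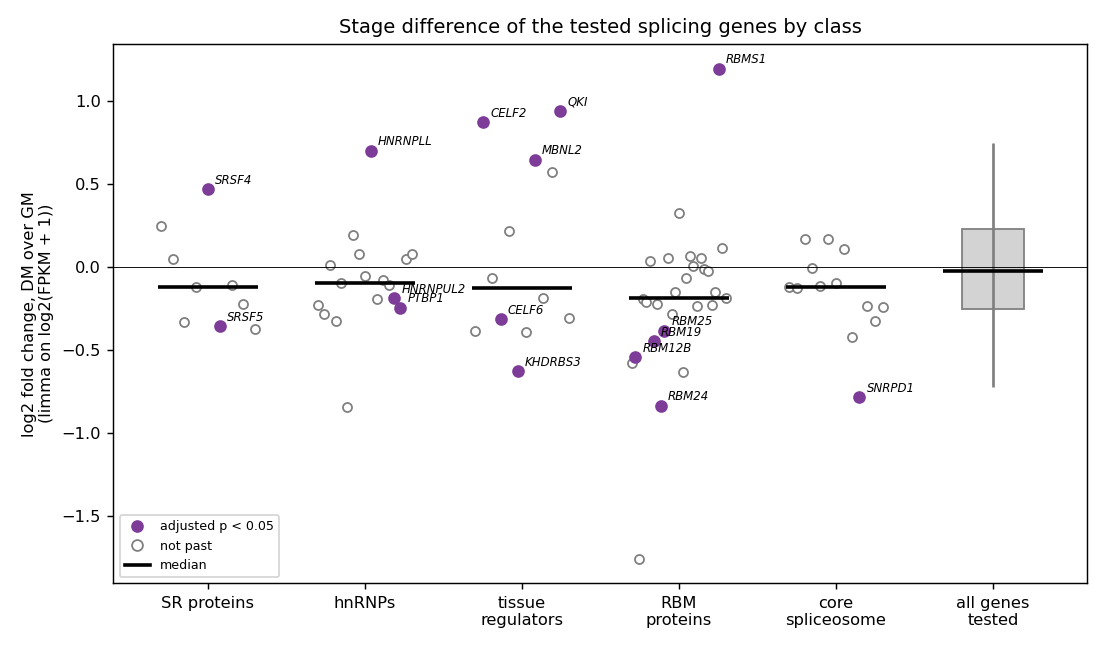
Log2 fold change (DM over GM, limma on log2(FPKM + 1)) of each tested splicing gene by class, with filled points past an adjusted p-value of 0.05, a bar at the class median, and all tested genes as a box of the middle quartiles with its median and a line between the 5th and 95th percentiles. Core genes lie between -0.78 and 0.17, while regulators run from -1.76 to 1.20.

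Among the tissue regulators, CELF2, QKI and MBNL2 rose. CELF2 is a CELF-family splicing regulator of heart, brain and muscle. It had 10.1, 9.57 and 9.14 FPKM in DM1, DM2 and DM3, against 4.67, 4.81 and 4.88 FPKM in GM1, GM2 and GM3. The log2 fold change was 0.87 (SE 0.07, limma, adjusted p = 0.000612), and the lowest DM library was well clear of the highest GM library. The paper lists CELF2 among genes that changed in expression and in splicing between the stages. The paper's limit for expression was a log2 fold change beyond 1 by edgeR, which CELF2 did not reach here on the log2(FPKM + 1) scale. The paralogue CELF1, whose excess in human myotonic dystrophy counters MBNL proteins, had 3.11, 4.31 and 3.52 FPKM in DM and 6.42, 3.80 and 5.14 FPKM in GM. CELF1 did not pass (log2 fold change -0.38, 95% interval -0.83 to 0.06, adjusted p = 0.165), and DM2 exceeded GM2. As a ratio within each library, CELF2 over CELF1 was 3.23, 2.22 and 2.60 in DM and 0.727, 1.27 and 0.949 in GM. CELF2 was thus the more abundant of the pair in every DM library, while in GM this held for GM2 alone. CELF6, a lowly expressed relative, had 0.704, 0.761 and 0.646 FPKM in DM and 1.02, 1.38 and 0.977 FPKM in GM. CELF6 fell by 0.32 on the log2 scale (SE 0.09, limma, adjusted p = 0.0468), a call that did not hold in any of the 6 fits with a library left out (adjusted p 0.0658 to 0.113). CELF5 had 2.84 ± 0.192 FPKM in DM and 3.02 ± 0.143 FPKM in GM (SD, n = 3 each), a log2 fold change of -0.07 with a 95% interval of -0.26 to 0.13.

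QKI, a KH-domain protein that binds a short RNA motif and promotes muscle-type splicing in mouse cells, had 14.7, 10.1 and 8.92 FPKM in DM, against 7.10, 5.78 and 3.46 FPKM in GM. Its log2 fold change was 0.94 (SE 0.27, limma, adjusted p = 0.0426). Each stage spanned a wide range, and the lowest DM library was not far above GM1, the highest of its stage. QKI stayed past the threshold without GM1 but not without DM1, DM2, DM3, GM2 or GM3, where the adjusted p-value reached 0.0957.

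The muscleblind family (MBNL) promotes adult isoforms in muscle and is depleted from the nucleoplasm in human myotonic dystrophy. MBNL2 had 8.53, 5.82 and 7.56 FPKM in DM and 4.19, 5.13 and 3.57 FPKM in GM. It rose by a log2 fold change of 0.65 (SE 0.16, limma, adjusted p = 0.0304), with DM2 only slightly above GM2. The call was lost without DM1, DM3, GM1 or GM3, where the adjusted p-value reached 0.0874. MBNL1 had 12.5, 9.27 and 20.0 FPKM in DM and 12.1, 26.4 and 17.1 FPKM in GM, with full overlap (log2 fold change -0.39, 95% interval -1.24 to 0.46, adjusted p = 0.439). MBNL3, the most abundant tissue regulator, had 20.6, 20.5 and 21.9 FPKM in DM and 26.2, 22.2 and 23.7 FPKM in GM. The stages of MBNL3 did not overlap, but the difference was small and did not pass (log2 fold change -0.19, adjusted p = 0.117). The family sum was 41.6, 35.5 and 49.4 FPKM in DM and 42.5, 53.8 and 44.3 FPKM in GM, so that the stages overlapped. Of this sum, MBNL2 contributed 20.5, 16.4 and 15.3% in DM and 9.86, 9.54 and 8.05% in GM, without overlap. The shares of the other members overlapped between the stages. MBNL1 contributed 30.0, 26.1 and 40.4% in DM and 28.6, 49.1 and 38.6% in GM. MBNL3 contributed 49.5, 57.5 and 44.2% in DM and 61.6, 41.3 and 53.4% in GM.

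KHDRBS3, a STAR-family protein related to SAM68, fell. Its values were 4.33, 4.16 and 3.02 FPKM in DM and 7.41, 5.55 and 6.39 FPKM in GM (log2 fold change -0.63, SE 0.15, limma, adjusted p = 0.0241). The call was lost without DM2, GM1 or GM3 (adjusted p up to 0.0729). KHDRBS1, which encodes SAM68 itself, had 6.77, 5.28 and 12.5 FPKM in DM and 5.75, 6.30 and 7.47 FPKM in GM and did not pass (adjusted p = 0.598). The ratio of KHDRBS1 to KHDRBS3 was 1.56, 1.27 and 4.13 in DM and 0.776, 1.14 and 1.17 in GM, without overlap. RBFOX2, the ubiquitous member of a family that promotes muscle exons in mouse and zebrafish, had 15.3, 10.8 and 5.73 FPKM in DM and 17.2, 14.5 and 7.74 FPKM in GM. DM3 and GM3 were the lowest libraries of their stages, and the interval of the log2 fold change was wide (-0.31, 95% interval -1.28 to 0.66, adjusted p = 0.598). RBFOX1, the muscle and neuron member, had 0.507, 0.418 and 0.622 FPKM in DM and 0.404, 0.471 and 0.508 FPKM in GM, under the filter. RBFOX3 was listed at 0 in all 6 libraries. The neuronal regulator NOVA1 was high in DM1 and DM2, at 1.58 and 1.37 FPKM, but DM3 had 0.220 FPKM, inside the GM values of 0.410, 0.340 and 0.197 FPKM (log2 fold change 0.57, adjusted p = 0.179). Without DM3, the only DM library within the GM range, NOVA1 passed (0.91, limma, adjusted p = 0.00520).

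**Figure D3:**
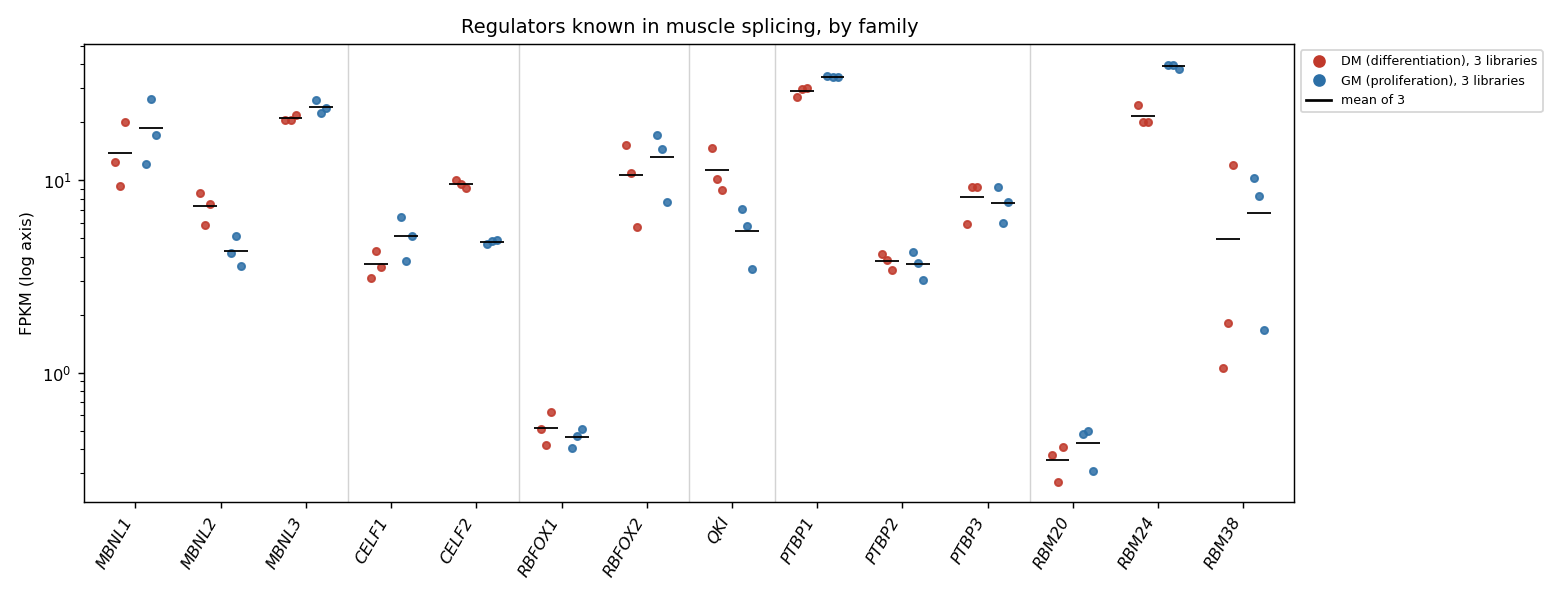
FPKM (log axis) of 14 of 15 regulators known in muscle splicing (RBFOX3 was listed at 0), with the 3 DM libraries (red) left of the 3 GM libraries (blue) and a line at the mean of 3. CELF2, MBNL2 and QKI lie higher in DM and RBM24 and PTBP1 lower, and MBNL3 lies lower without passing the test. The stages overlap for MBNL1, CELF1, RBFOX1, RBFOX2, PTBP2, PTBP3, RBM20 and RBM38.

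RBMS1 had the largest rise of all splicing genes. On the log2(FPKM + 1) scale, RBMS1 was the only one to pass the test with a log2 fold change beyond 1. It belongs to a group of RBM proteins that bind single-stranded nucleic acids, and in human it was found as a factor binding near the MYC gene. RBMS1 had 30.0, 24.0 and 28.1 FPKM in DM (mean 27.3 ± 3.07), against 10.4, 9.44 and 14.8 FPKM in GM (mean 11.5 ± 2.84, SD, n = 3 each). The log2 fold change was 1.20 (SE 0.17, limma, adjusted p = 0.00435). The highest GM library, GM3, stayed well below the lowest DM library, DM2. Its relative RBMS3 overlapped between the stages, with 3.85, 2.72 and 7.25 FPKM in DM and 5.11, 3.23 and 3.54 FPKM in GM.

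RBM24 was the most clearly lowered RBM gene. In mouse and zebrafish it is a muscle-enriched protein that promotes the inclusion of muscle exons. It had 24.6, 20.1 and 20.0 FPKM in DM (mean 21.6 ± 2.59) and 39.8, 39.7 and 37.8 FPKM in GM (mean 39.1 ± 1.09, SD, n = 3 each). RBM24 fell by 0.83 on the log2 scale (SE 0.09, limma, adjusted p = 0.00169). All 3 DM libraries were far under the narrow range of GM. Its paralogue RBM38, a target of p53 in human cells, had 1.05, 1.81 and 11.9 FPKM in DM and 10.2, 8.28 and 1.66 FPKM in GM. DM3 was the highest of all libraries for RBM38 and GM3 lay among the low ones, so that nothing can be said of its direction (log2 fold change -0.63, 95% interval -2.68 to 1.42, adjusted p = 0.610). RBM20, which controls titin splicing in mammalian heart, stayed under the filter, at 0.374, 0.272 and 0.411 FPKM in DM and 0.482, 0.497 and 0.308 FPKM in GM.

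A further 3 RBM genes fell. RBM12B had 5.90, 5.98 and 5.54 FPKM in DM and 8.75, 8.80 and 9.17 FPKM in GM (log2 fold change -0.54, SE 0.07, limma, adjusted p = 0.00249), with tight replicates and a clear gap. RBM19, a nucleolar protein of ribosome synthesis, had 3.70, 4.29 and 5.42 FPKM in DM and 6.41, 6.24 and 6.48 FPKM in GM (log2 fold change -0.45, SE 0.12, limma, adjusted p = 0.0402). Its DM libraries were uneven, and the call held only without DM3, with an adjusted p-value of up to 0.110 without DM1, DM2, GM1, GM2 or GM3. RBM25, which associates with the U1 snRNP and influences 5′ splice site choice in human cells, had 4.32, 3.80 and 4.18 FPKM in DM and 5.34, 6.06 and 5.54 FPKM in GM. It fell by 0.38 on the log2 scale (SE 0.08, limma, adjusted p = 0.0184), and the call was lost without DM2, GM2 or GM3 (adjusted p up to 0.0650). RBM25 was the single call among 7 RBM genes listed for binding the spliceosome (14.3%, against 30.3% of all tested genes). RBM22, a protein of the catalytic spliceosome, had 35.5, 37.8 and 41.7 FPKM in DM and 42.2, 46.6 and 45.9 FPKM in GM (log2 fold change -0.22, adjusted p = 0.0808, and -0.28 with 0.0452 without DM3). RBM5, a regulator of apoptotic exons in human cells, had 42.8, 42.8 and 43.4 FPKM in DM and 40.7, 45.1 and 45.9 FPKM in GM (log2 fold change -0.03, 95% interval -0.18 to 0.13). RBM18, the most abundant RBM gene at a mean of 60.9 FPKM, had 58.3, 66.6 and 60.3 FPKM in DM and 56.6, 62.1 and 61.4 FPKM in GM (log2 fold change 0.04, 95% interval -0.14 to 0.22). The stages overlapped in both.

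RBM15, which in mammals brings the m6A methylation complex to RNA, had the lowest fold change of all splicing genes without passing the test. Its values were 2.78, 0.0207 and 3.94 FPKM in DM and 15.3, 6.07 and 5.38 FPKM in GM. The stages did not overlap, but DM2 was almost without signal and GM1 far above the other GM libraries (log2 fold change -1.76, 95% interval -3.37 to -0.14, adjusted p = 0.0956). RBM12 was likewise lower in DM on average without passing, at 6.84, 5.75 and 6.26 FPKM in DM and 12.7, 6.45 and 11.6 FPKM in GM (log2 fold change -0.58, adjusted p = 0.113). It passed without GM2 (-0.85, limma, adjusted p = 0.00793). RBM34 had 12.9, 16.1 and 18.6 FPKM in DM and 11.0, 13.3 and 12.8 FPKM in GM (log2 fold change 0.33, adjusted p = 0.131) and passed without DM1 (0.46, adjusted p = 0.0344).

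Of the 17 hnRNP and PTBP genes 1 rose, 2 fell and 14 did not pass. HNRNPLL, a repressor of exons best known from the CD45 gene of mammalian lymphocytes, had 8.30, 11.0 and 10.9 FPKM in DM, against 5.69, 5.80 and 5.80 FPKM in GM. It rose by a log2 fold change of 0.70 (SE 0.11, limma, adjusted p = 0.00693), with all DM libraries above a nearly constant GM level. PTBP1, a repressor of muscle and neuronal exons in dividing mammalian cells, had 27.1, 29.9 and 30.0 FPKM in DM and 34.8, 34.3 and 34.5 FPKM in GM. Its fall was small (log2 fold change -0.25, SE 0.06, limma, adjusted p = 0.0277) and depended on each of DM2, GM1, GM2 and GM3, without which the adjusted p-value reached 0.0828. The neuronal paralogue PTBP2 had 4.11, 3.86 and 3.43 FPKM in DM and 4.25, 3.69 and 3.02 FPKM in GM, a log2 fold change of 0.05 with a 95% interval of -0.25 to 0.35. PTBP3 had 5.95, 9.23 and 9.20 FPKM in DM and 9.17, 5.99 and 7.71 FPKM in GM (log2 fold change 0.08, 95% interval -0.42 to 0.57). PTBP1 exceeded PTBP2 in every library, by a ratio of 6.60, 7.74 and 8.77 in DM and 8.19, 9.30 and 11.4 in GM, and the stages overlapped.

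HNRNPUL2, the most abundant gene of the class and a relative of the nuclear matrix protein hnRNP U, had 33.6, 32.4 and 32.5 FPKM in DM and 37.5, 37.1 and 38.0 FPKM in GM. It had the smallest change among the called genes (log2 fold change -0.19, SE 0.05, limma, adjusted p = 0.0345) and stayed past the threshold only without DM1, with an adjusted p-value of up to 0.114 without the other libraries. Other abundant HNRNP genes did not pass. HNRNPK had 14.0 ± 0.565 FPKM in DM and 14.6 ± 1.15 FPKM in GM, HNRNPR 23.4 ± 1.42 and 24.7 ± 1.09 FPKM, and HNRNPU 16.2 ± 1.26 and 17.5 ± 1.12 FPKM (SD, n = 3 each, DM before GM). HNRNPA0 and HNRNPAB just missed the threshold, with no overlap of the stages and log2 fold changes of -0.23 (adjusted p = 0.0623) and -0.32 (adjusted p = 0.0543). HNRNPAB passed without GM3 (-0.41, adjusted p = 0.0377), and HNRNPA2B1, whose log2 fold change was -0.28 (adjusted p = 0.413), passed without GM1 (-0.55, adjusted p = 0.0372). HNRNPDL was uneven, with 1.32, 2.14 and 5.74 FPKM in DM and 6.17, 6.89 and 4.01 FPKM in GM (log2 fold change -0.84, adjusted p = 0.169). Without DM3, the highest of its stage and the only DM library within the GM range, HNRNPDL passed (-1.28, limma, adjusted p = 0.0211).

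SR proteins gave 1 gene in each direction. SRSF4 had 1.18, 1.39 and 1.34 FPKM in DM and 0.696, 0.668 and 0.629 FPKM in GM (log2 fold change 0.47, SE 0.07, limma, adjusted p = 0.00461). It was the lowest of the genes that rose, and the stages were far apart. SRSF5, whose protein binds purine-rich exonic enhancers, had 12.7, 12.2 and 12.1 FPKM in DM and 18.3, 14.7 and 15.3 FPKM in GM. It fell by 0.36 on the log2 scale (SE 0.09, limma, adjusted p = 0.0336), a call that held only without GM2 and reached an adjusted p-value of 0.0953 without DM1, DM2, DM3, GM1 or GM3. The abundant members did not pass. TRA2A, the vertebrate relative of the fly sex-determination factor Transformer-2 and the highest of the class, had 42.4, 47.6 and 49.4 FPKM in DM and 56.0, 55.9 and 50.9 FPKM in GM, without overlap (log2 fold change -0.22, adjusted p = 0.0797, and -0.24 with 0.0264 after quantile normalization). SRSF3 had 40.9 ± 3.75 FPKM in DM and 44.4 ± 2.61 FPKM in GM, and SRSF6 38.8 ± 1.98 and 42.0 ± 3.59 FPKM (SD, n = 3 each, DM before GM). The 11 SR genes summed to 156, 172 and 181 FPKM in DM and 199, 201 and 176 FPKM in GM, with DM3 above GM3.

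In the core spliceosome the single call was SNRPD1, an Sm protein of the ring shared by most spliceosomal snRNPs. SNRPD1 had 2.24, 2.36 and 2.41 FPKM in DM (mean 2.34 ± 0.0886) and 4.86, 4.28 and 5.10 FPKM in GM (mean 4.75 ± 0.423, SD, n = 3 each). It fell by 0.78 on the log2 scale (SE 0.09, limma, adjusted p = 0.00172), with a wide gap between the stages. The other Sm genes in the table did not pass. SNRPD3 had 15.5, 18.9 and 19.9 FPKM in DM and 18.6, 24.3 and 21.6 FPKM in GM (log2 fold change -0.24, adjusted p = 0.220). SNRPG had 1.99, 1.18 and 1.69 FPKM in DM and 2.12, 2.47 and 2.20 FPKM in GM (log2 fold change -0.33, adjusted p = 0.111). SNRPB had 28.1 ± 4.27 FPKM in DM and 30.0 ± 0.879 FPKM in GM (log2 fold change -0.10). SNRPB2 of the U2 snRNP had 14.7, 19.2 and 21.1 FPKM in DM and 16.2, 17.3 and 16.8 FPKM in GM and passed only without DM1 (log2 fold change 0.25, limma, adjusted p = 0.0479, against 0.11 and 0.573 with all libraries).

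Among the core genes found, those whose proteins recognise the ends of introns or the branch point showed no change in RNA past the test. The symbol rule did not find every gene of this kind, and U2AF2 was not among its matches. SF3B3, part of the U2 snRNP complex at the branch point, was the most abundant splicing gene, with 74.7, 86.9 and 90.9 FPKM in DM and 82.0, 85.4 and 85.7 FPKM in GM. Its log2 fold change was -0.01 with a 95% interval of -0.21 to 0.20. SF3B1, which binds the branch site itself, had 21.7, 23.3 and 24.0 FPKM in DM and 19.4, 19.8 and 21.9 FPKM in GM, the highest fold change of the core together with SNRPA1 (both 0.17) and not past the test (adjusted p = 0.131 for SF3B1 and 0.429 for SNRPA1). U2AF1, which reads the end of the intron, had 12.6, 14.1 and 15.1 FPKM in DM and 16.3, 16.8 and 16.7 FPKM in GM, without overlap (log2 fold change -0.24, adjusted p = 0.0619). It passed without DM3 (-0.30, limma, adjusted p = 0.0424). SNRPC of the U1 snRNP had 4.96, 4.33 and 4.35 FPKM in DM and 6.42, 8.42 and 4.80 FPKM in GM (log2 fold change -0.42, adjusted p = 0.130), and passed without GM3 (-0.59, adjusted p = 0.0395). SF3A1, SF3A2 and SF3B4 lay between -0.13 and -0.11. The 13 core genes together summed to 273, 307 and 339 FPKM in DM and 302, 323 and 321 FPKM in GM, with full overlap.

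The 11 genes under the filter include regulators of other tissues. CELF4, RBFOX3 and SRRM3, which are neuronal in mammals, were listed at 0 in all 6 libraries. ESRP1, KHDRBS2, RBM44 and RBM46 had means under 0.1 FPKM. Low but measurable were ESRP2, a regulator of epithelial splicing, with 0.117 ± 0.0165 FPKM in DM and 0.343 ± 0.0302 FPKM in GM, and SRRM4, a regulator of neuronal microexons, with 0.218 ± 0.0408 FPKM in DM and 0.308 ± 0.0155 FPKM in GM (SD, n = 3 each). In both, every DM library was below every GM library. Fitted without the filter, ESRP2 passed (log2 fold change -0.27, limma, adjusted p = 0.00215) and SRRM4 did not. RBM20 and RBFOX1 complete the 11.

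Libraries of one stage differed more for some regulators than for the core. Core genes were also more abundant, with a median of 19.8 FPKM against 6.84 FPKM for regulators. The highest library exceeded the lowest by more than 2-fold within at least 1 stage in 16 of the 65 tested regulators (24.6%) and in 0 of the 13 core genes, against 15.2% of all tested genes. DM3 was the library farthest from the median in 8 of the 22 cases, GM3 in 6 and GM1 in 5. HNRNPA2B1, HNRNPD, HNRNPH1 and HNRNPH3 were all lowest in GM1 within their stage, with HNRNPH1 at 18.1, 20.6 and 25.9 FPKM in DM and 11.1, 25.9 and 21.8 FPKM in GM. The 16 uneven genes had a median of 2.5 transcript models in the table, against 1 for the 62 other tested splicing genes. Of the 16, 1 (QKI) passed the test, against 15 of the 62. Spread within a stage is also the error of the test, so few calls among the 16 follow from how they were picked. The parts of transcript assembly and of abundance in this spread were not tested.

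Genes that work with the splicing families without matching their names were also examined, in 5 lists: tri-snRNP, catalytic core and helicases, snRNP assembly, SR protein kinases and phosphatases, exon junction complex and nonsense-mediated decay, and other RNA-binding regulators. Of 109 such genes 108 were tested, of which 0 rose, 23 fell (21.3%, against 15.5% of all tested genes) and 85 did not pass by limma, with a median log2 fold change of -0.17. At an unadjusted p-value under 0.05, 5 were higher (4.63%, against 20.3% of all tested genes) and 36 lower (33.3%, against 22.2%). The count that fell was 10 without DM2, 14 without GM1, 13 without GM2 and 10 without GM3. In these fits 18.9 to 19.9% of all tested genes differed, against 30.3% with all libraries. Genes of the lists that rose numbered 3 without DM1 and 1 without GM1, and 3 or 4 after quantile normalization or median-of-ratios scaling. Of the catalytic and helicase list 3 of 47 fell, among them PRPF39, a U1 snRNP-associated factor, with 9.92, 10.03 and 10.1 FPKM in DM and 15.1, 15.0 and 13.9 FPKM in GM (limma, adjusted p = 0.00240), and SYF2 (log2 fold change -0.56, adjusted p = 0.0461). Of the assembly genes 3 of 10 fell, including SART3, which recycles the U4 and U6 snRNPs (log2 fold change -0.49, adjusted p = 0.00471), and STRAP of the SMN complex (-0.40, adjusted p = 0.0228). SYF2 lost the call without DM1, DM2, GM1 or GM2 (adjusted p up to 0.129) and STRAP without DM2, GM2 or GM3 (up to 0.0771).

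Of the listed kinases and phosphatases of SR proteins, those found by symbol were all below 0 in log2 fold change, 8 of 8, against 52.8% of all tested genes. CLK1, SRPK3 and DYRK1B were on the list but were not found by symbol, so their direction is unknown. Of the 8, 2 fell (25%, against 15.5% of all tested genes). PPM1G, a phosphatase, had 8.52, 9.16 and 9.93 FPKM in DM and 11.3, 12.9 and 14.1 FPKM in GM (log2 fold change -0.43, adjusted p = 0.0226). SRPK1, the kinase that sends SR proteins to the nucleus, had 8.18, 8.40 and 9.24 FPKM in DM and 11.1, 10.5 and 13.5 FPKM in GM (log2 fold change -0.40, adjusted p = 0.0351). Both genes were lower in each DM library than in any GM library, but PPM1G lost the call without DM1, DM2, GM2 or GM3 (adjusted p up to 0.0723) and SRPK1 without DM1, DM2, GM1 or GM3 (up to 0.101). Of the exon junction and decay genes, 6 of 14 fell (42.9%), led by PNN (log2 fold change -0.54, adjusted p = 0.00336) and SMG6, an endonuclease of nonsense-mediated decay (-0.53, adjusted p = 0.00784). Of the other RNA-binding regulators, 9 of 29 fell (31.0%). LUC7L, a U1 snRNP-associated protein, had 2.45, 2.42 and 1.51 FPKM in DM and 4.63, 6.20 and 5.37 FPKM in GM (log2 fold change -1.04, adjusted p = 0.00567). MSI2, a musashi protein best known from stem cells, had 5.89, 5.52 and 5.12 FPKM in DM and 9.92, 9.39 and 9.12 FPKM in GM (log2 fold change -0.69, adjusted p = 0.00181). YBX1, a cold-shock protein that binds mRNA, had the highest fold change of these lists (2.05) but did not pass (adjusted p = 0.0830). GM1 with 48.0 FPKM was far above GM2 with 6.73 and GM3 with 6.91 FPKM and within the DM values of 42.3, 65.6 and 73.1 FPKM.

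**Figure D4:**
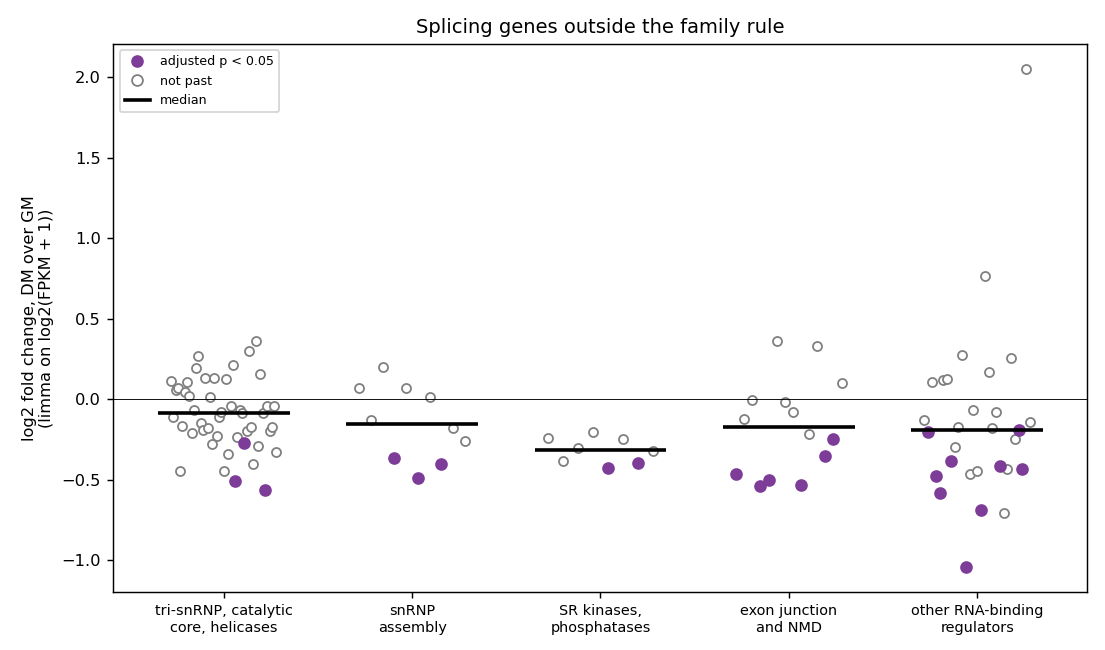
Log2 fold change (DM over GM, limma on log2(FPKM + 1)) of 108 splicing genes outside the named families, by list, with filled points past an adjusted p-value of 0.05 and a bar at the list median. All 23 filled points lie below 0, and the open point at 2.05 is YBX1.

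Noncoding transcripts were assembled by the authors at 21 of the splicing gene loci, 71 in all, and were fitted with the other noncoding transcripts of the deposited table (12988 tested). They come from the same libraries as the genes. Of the 71, 53 lie inside introns, 9 share a splice junction with the gene, 6 are antisense and 3 overlap an exon, and RBFOX1 alone carries 23. Of 52 tested, 0 rose and 2 fell, while 3.62% of all tested noncoding transcripts differed (0.978% higher and 2.64% lower). By limma at an unadjusted p-value under 0.05, 14 of the 52 differed (26.9%, against 25.8% of all). The fold change was below 0 in 41 of the 52, or 78.8%, against 68.4% of all noncoding transcripts, and the median was -0.29 against -0.22. The stages did not overlap in 16 transcripts with DM below GM (25.0% of all) and in 1 with DM above GM (7.30% of all). None of the 52 passed with a log2 fold change beyond 1 in either direction, against 0.562% of all higher and 1.45% of all lower. The count of 2 became 0 without DM2, DM3, GM1, GM2 or GM3, and without DM1 another 2 passed.

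The 2 transcripts that fell lie at KHDRBS3 and HNRNPAB (positions in GooseV1.0), and each lost the call with any 1 library left out (adjusted p up to 0.157 at KHDRBS3 and 0.158 at HNRNPAB). The KHDRBS3 transcript lies in an intron, on the minus strand of scaffold NW_013185795.1 from 757806 to 759596, with 2 exons. It had 0.550, 0.352 and 0.222 FPKM in DM and 1.51, 1.35 and 1.61 FPKM in GM (log2 fold change -0.86, SE 0.18, limma, adjusted p = 0.0426), and KHDRBS3 itself also fell. The HNRNPAB transcript is antisense, on the minus strand of NW_013185674.1 from 4782983 to 4787942, with 3 exons. It had 1.21, 1.05 and 1.17 FPKM in DM and 2.75, 2.40 and 2.33 FPKM in GM (log2 fold change -0.70, SE 0.15, limma, adjusted p = 0.0455). The library kit keeps strand, but whether counting used it is not given in the sources used here, so reads of an antisense transcript and of its gene may be mixed. Some intronic transcripts, among them all 23 at RBFOX1, were deposited without a strand, so their reads may be mixed with those of the gene too. An intronic transcript of RBFOX2, on NW_013185696.1 from 3680178 to 3683701, had 5.63, 3.11 and 2.74 FPKM in DM and 13.6, 7.63 and 9.42 FPKM in GM and just missed the threshold (log2 fold change -1.23, SE 0.27, adjusted p = 0.0515), which it passed without DM1 (-1.48, adjusted p = 0.0397).

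The smallest adjusted p-values among transcripts with a positive fold change did not pass. A transcript sharing a junction with SNRPC was listed at 0 in DM1 and in all GM libraries, with 4.11 FPKM in DM2 and 5.34 FPKM in DM3 (adjusted p = 0.145), and passed without DM1 (adjusted p = 0.00479). Intronic transcripts of CELF2 (log2 fold change 0.38, adjusted p = 0.267) and RBFOX1 (0.22, adjusted p = 0.449) followed. At the loci of genes that rose, 6 of 10 tested transcripts had a fold change below 0, as did 68.4% of all tested noncoding transcripts. Among the 6 were both transcripts at QKI and all 3 at RBMS1. None of the 10 passed, against 3.62% of all that did.

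**Figure D5:**
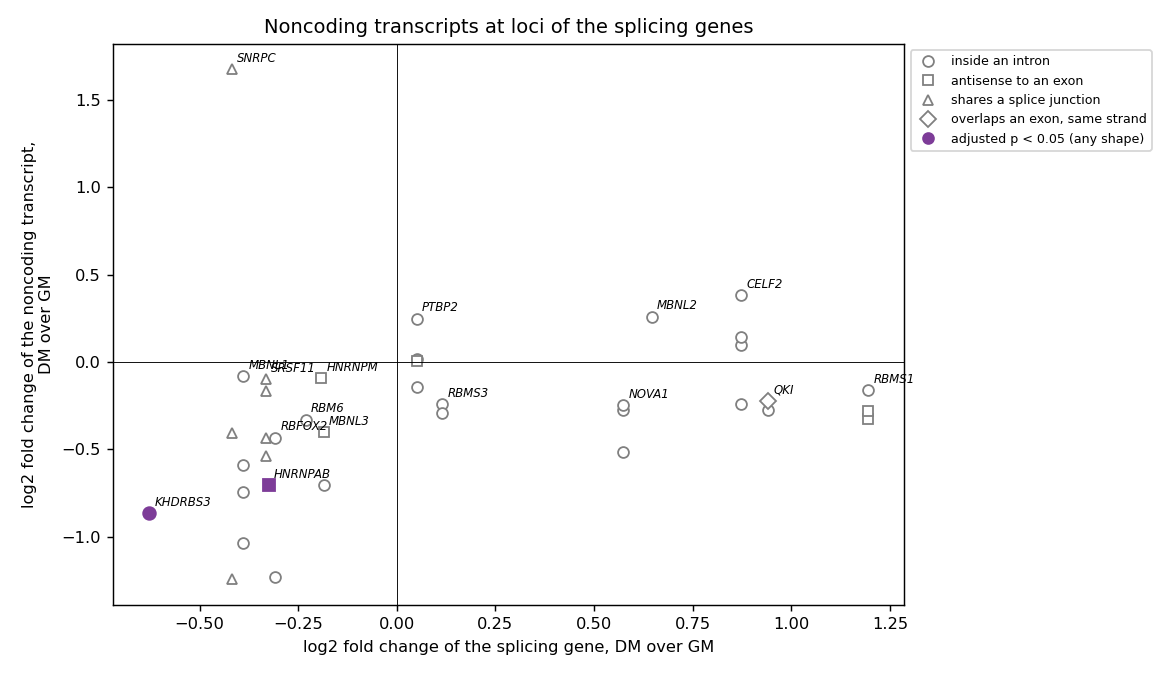
Log2 fold change (DM over GM, limma on log2(FPKM + 1)) of 38 tested noncoding transcripts against that of the splicing gene at the same locus, with shapes for their position and filled points past an adjusted p-value of 0.05. In 18 both values are below 0, and the filled points are at KHDRBS3 and HNRNPAB.

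Annotation with splicing terms covered only part of the splicing genes. In the deposited annotation, 32 of the 89 carried the KEGG term Spliceosome, all 13 core genes and 19 of the 76 regulators. A GO term naming splicing was attached to 52, again all 13 core genes and 39 regulators. Of the 30 RBM genes, 10 carried such a GO term. Of the 6 genes that rose, SRSF4 alone carried the KEGG term, and RBMS1 carried neither term.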

How the data were processed

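RNA of 6 goose myoblast cultures (3 DM, 3 GM) was sequenced after depletion of ribosomal RNA with a stranded kit. The authors trimmed reads with Cutadapt, mapped them to GooseV1.0 (the methods name Bowtie2 and the submitters' processing notes HISAT2 and TopHat), built transcripts with StringTie and deposited FPKM for 14283 genes and 14993 noncoding transcripts, with 0.0001 in place of 0. FPKM is scaled by length and mapped fragments, so values follow the assembled models and the makeup of each library. Their tables also hold their own fold changes, p-values and calls of the stage comparison, which were not used. Of the per-sample columns, 0 were left out.

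The authors name edgeR, a tool for counts. As the values here are FPKM, log2(FPKM + 1) was fitted with limma 3.58.1 (lmFit, eBayes with trend) in R 4.3.3 over rows whose mean reached 0.5 FPKM, with Benjamini-Hochberg adjustment over all tested rows. The fit was tested on simulated data. Exact permutation of 3 against 3 libraries has a smallest p of 0.1 and was not used. Tables and figures were made with Python 3.11.15, numpy 2.4.6, pandas 2.3.3 and matplotlib 3.10.9. Named genes are every splicing gene past the test, 15 regulators known in muscle, the highest gene of each class, genes under the filter, in each list the 2 with the largest fall and rise past the test, and the 3 noncoding transcripts with the smallest adjusted p-values in each direction. Other genes were chosen after their values were seen, including genes that passed only with a library left out. Such passes are no support for a stage difference. The splicing genes, lists and tests were chosen with earlier results of these data known. Alternatives were no filter, a minimum mean of 2 FPKM, a pseudocount of 0.1, quantile normalization, median-of-ratios scaling, the replicate number as a block, eBayes without trend and robust, and each library left out. For the lists outside the families these were added after seeing the data. Symbols were matched to RefSeq for 87 of the 89 genes, and splicing events were not analysed here.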

Additional observations from a re-analysis of the deposited data

How the results depend on the processing

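Of the 16 splicing genes past the test, 7 (RBMS1, CELF2, HNRNPLL, SRSF4, RBM24, SNRPD1 and RBM12B) passed under each of the 13 alternatives in which they were tested, SRSF4 being under the filter at 2 FPKM. The other 9 lost the call under at least 1 alternative and none changed direction. No filter lost CELF6, MBNL2, QKI and RBM19 and added ESRP2, RBM15B and RBM47, quantile normalization lost CELF6, HNRNPUL2 and QKI and added TRA2A, HNRNPA0, RBM22 and U2AF1, and median-of-ratios scaling lost CELF6 and HNRNPUL2 and added RBM22 and U2AF1, and eBayes without trend and robust lost HNRNPUL2 and added HNRNPAB. Leaving out a library gave 4 to 6 genes higher in DM and 3 to 10 lower, 1 to 2 and 0 to 1 beyond a log2 fold change of 1, and medians of -0.18 to -0.11 for regulators and -0.16 to -0.09 for the core. With a pseudocount of 0.1, 2 genes rose beyond that limit, and with no filter the regulators' median was -0.10. The 2 noncoding transcripts became 1 with a pseudocount of 0.1, a mean of at least 2 FPKM or quantile normalization, 0 with no filter or median-of-ratios scaling, and 0 to 2 with a library left out. For splicing genes outside the families, 10 to 23 fell and 0 to 3 rose with a library left out, while quantile normalization gave 3 risen and median-of-ratios scaling 4. Reversals concerned genes that did not pass: SF3B3 was 0.013 under median-of-ratios scaling, and with a library left out SF3B3 ran from -0.065 to 0.075, PTBP2 from -0.051 to 0.14, PTBP3 from -0.067 to 0.26, RBFOX2 from -0.62 to 0.040 and RBM18 from -0.017 to 0.078. The cause was not tested.

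Whether libraries with the same replicate number belong together is not given in the sources used here. Deviations of same-numbered libraries correlated by 0.034, 0.021 and -0.002, with GM2 closer to DM3 than to DM2. With 3 libraries a stage, these values cannot show whether the numbers are paired. With the replicate number as a block, 5 splicing genes rose instead of 6 and 5 fell instead of 10, 10 of the 16 kept the call, 0 noncoding transcripts at their loci passed and 1 gene outside the families rose. With 3 libraries a stage, the 95% interval of the log2 fold change spanned -1.24 to 0.46 for MBNL1, -1.28 to 0.66 for RBFOX2 and -2.68 to 1.42 for RBM38.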
